A study of Mus musculus with 4 samples.

Results

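The 10 genes described here are Trp53, which encodes the transcription factor p53, 3 of its regulators (Mdm2, Mdm4 and Ppm1d) and 6 genes that p53 activates (Ccng1, Trp53inp1, Sesn2, Zmat3, Phlda3 and Gadd45a). They were chosen by name: the probes whose accession in the scanner files belongs to one of these symbols were taken, which gave 12 probes for 10 of the 13041 named genes compared. Expression was measured on 4 one-colour arrays, 2 of parthenogenetic haploid and 2 of parthenogenetic diploid mouse embryonic stem cells (ESCs). Parthenogenetic cells descend from an unfertilised egg and hold only a maternal genome. All 4 samples were female, and each array carried RNA of 1 line (line 1 or line 2 of its group). The labels do not say that equally numbered haploid and diploid lines share an origin. The share of cells that were still haploid in a haploid line is not stated in the sources used here, and haploid mouse ESCs are known to become diploid in culture.

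In most cells p53 is kept scarce because MDM2, a ubiquitin ligase, marks it for destruction, and MDM4 binds p53 and blocks its activity. DNA damage and other stress free p53 from both, and it then switches on genes that arrest the cell cycle, aid repair, restrain growth signals or kill the cell. Mdm2, Ppm1d and Ccng1 are themselves p53 targets and feed back on p53. Loss of p53 function is known to help haploid mammalian ESCs to stay haploid.

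The DNA letters that p53 recognises were looked for in the genes' promoter windows, whose sequences are from RefSeq. A p53 response element is a pair of 10-base units, and 1 such unit, the p53 decamer consensus, was searched on both strands without mismatch in windows of 300 bases (250 before to 50 after a gene's start, GRCm38.p6). Windows were held for 8 of the 10 genes. Of their 9 windows 5 held the decamer, in 5 genes, against 8.36% of all 32851 windows. Among the other p53 targets listed for comparison it was found in 13 of 81 windows (16%), and among other p53 regulators in 5 of 62 (8.06%). These are matches of letters, not shown binding sites. No window of the 10 genes held a pair of decamers within 13 bases of each other. Sequence outside the windows, such as most of each gene's introns, and sites with mismatches were not searched. The lack of a pair here therefore does not show that a gene has no p53 response element. The 5 matches are printed here, to show where these genes carry the letters, with 30 bases on each side, read 5′ to 3′ along the gene's strand, with the decamer in capitals.
Trp53: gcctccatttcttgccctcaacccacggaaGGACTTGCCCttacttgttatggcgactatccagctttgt
Mdm2: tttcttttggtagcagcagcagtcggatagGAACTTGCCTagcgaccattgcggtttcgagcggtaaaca
Ccng1: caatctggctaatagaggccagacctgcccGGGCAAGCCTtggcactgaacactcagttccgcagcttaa
Gadd45a: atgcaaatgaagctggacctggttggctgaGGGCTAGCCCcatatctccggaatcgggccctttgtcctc
Ppm1d: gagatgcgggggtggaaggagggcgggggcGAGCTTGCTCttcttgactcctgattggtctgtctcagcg
The stretches lie at chr11:69580254-69580323 on the plus strand (Trp53), chr10:117710905-117710974 on the minus strand (Mdm2), chr11:40755432-40755501 on the minus strand (Ccng1), chr6:67037408-67037477 on the minus strand (Gadd45a) and chr11:85311092-85311161 on the plus strand (Ppm1d). The decamer began 40 bases before the gene's start in Gadd45a, 75 in Trp53, 132 in Ppm1d, 185 in Ccng1 and 186 in Mdm2.

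Unless another unit is named, values are log2 signals relative to the array's own 75th percentile, so 0 is the level of that percentile and a difference of 1 is a doubling. Each sample gave 0.2 ug of RNA for labelling, so levels are relative to total RNA and not per cell. In a bulk sample, fewer cells of a type and less RNA per cell cannot be told apart. The 75th percentile was 526 to 907 intensity units, and 53.6% to 65.0% of probes on an array were well above background. All 15 ESC markers looked for were well above background on all 4 arrays. In the comparison of haploid with diploid arrays (limma, adjusted over all 17963 features) 20 features passed the 0.05 threshold, which is 0.111% of those tested, 15 higher (0.0835%) and 5 lower (0.0278%) in haploid cells. The split was 76 higher and 13 lower with median scaling, 6 and 1 with quantile normalization, and 66 and 2 when normexp left out spots of high local background. With normexp on all spots, a setting cited below, the values of diploid replicate 2 spread less (SD 1.45) than those of the other arrays (2.59 to 2.64). Its SD was 2.59 when spots of high local background were left out. The test was weak for small changes: on simulated arrays it found 4% of features changed by 1 on the log2 scale and 90% of those changed by 2. In that simulation 100 of 17963 features were changed by each amount and the noise was independent and normal. These shares hold for that setting only. An exact permutation test of a single gene with 2 arrays against 2 cannot go below p = 0.333.

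None of the 10 genes passed this test, in either direction. At an unadjusted p under 0.05 limma gave 2 of the 10, Mdm2 and Mdm4, where 11.7% of all features reached it. The largest differences were a higher Mdm2 signal and lower Mdm4 and Gadd45a signals in haploid cells, each under 1.5-fold. The difference was above 0 for 4 genes and below 0 for 6, with a median of -0.08, while 53.2% of all features lay above 0 and their median was 0.02. The values of the groups did not overlap for 3 of the 10 (47% of all features). In 1 of the 10 both haploid values were the higher ones, as in 26% of all features, and in 2 they were the lower ones, as in 20.9%. All 10 genes were well above background on all 4 arrays, so none of these values is a bound.

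**Figure D1:**
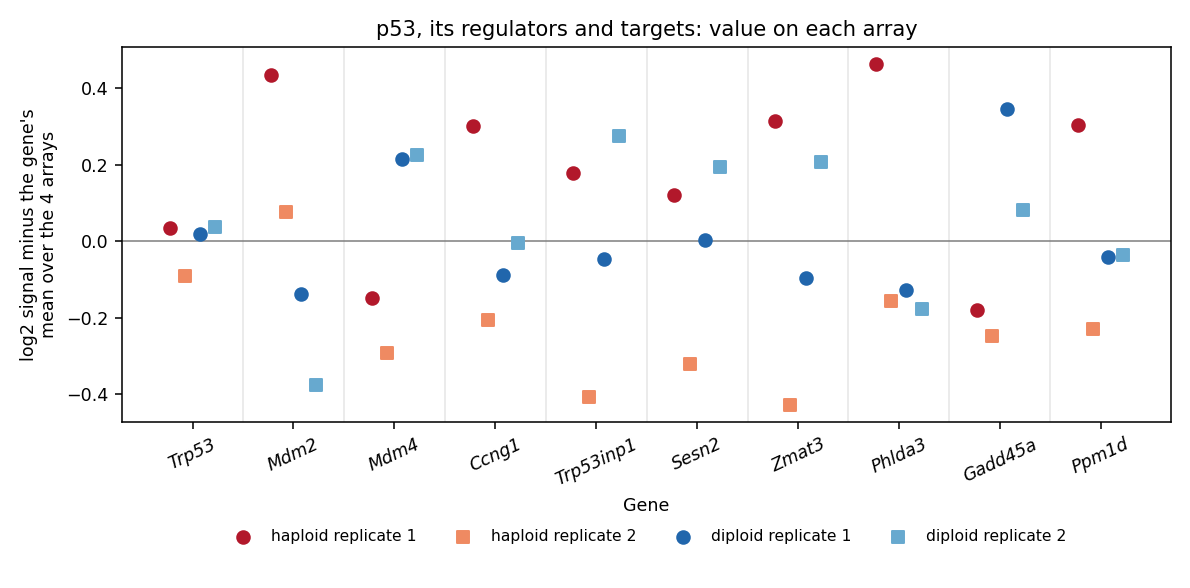
Log2 signal of each gene on each array minus that gene's mean over the 4 arrays, with haploid arrays in red and orange and diploid arrays in blue. Haploid replicate 1 lies above haploid replicate 2 for all 10 genes, and only Mdm2, Mdm4 and Gadd45a have groups that do not overlap.

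Trp53 itself was level across the arrays. Its signal was -0.12 and -0.24 on haploid replicates 1 and 2, and -0.13 and -0.11 on diploid replicates 1 and 2. The haploid and diploid values overlapped, haploid replicate 2 being the lowest of the 4. The difference was -0.06 ± 0.17 (SE, n = 2 per group, limma adjusted p = 0.906), with a 95% interval of -0.46 to 0.35. The amount of p53 protein, which is mostly controlled after transcription, was not measured. The sign of so small a difference turned with median scaling (0.016) and without haploid replicate 2 (0.0056). The 3 genes whose pattern over the 4 arrays came nearest to that of Trp53 were Dhtkd1, Htt and Ywhaz, with a root mean square distance of 0.006 to 0.0073 after each gene was centred on its own mean.

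The values of the main brakes on p53, Mdm2 and Mdm4, lay in opposite directions, though neither passed the test. Mdm2 read 4.06 and 3.70 on the haploid arrays and 3.49 and 3.25 on the diploid arrays. Both haploid values lay above both diploid values, and each first replicate lay above the second. The difference was 0.51 ± 0.20 (SE, n = 2 per group, limma adjusted p = 0.414), or 1.43-fold, with a 95% interval of 0.02 to 1.01. Features of like brightness had a median difference of 0.09. It was 0.33 without haploid replicate 1 and 0.69 without haploid replicate 2, and its adjusted p over all alternatives ran from 0.146 to 0.970.

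Mdm4 read -2.25 and -2.39 on the haploid arrays and -1.89 and -1.88 on the diploid arrays. Here both haploid values lay below both diploid values, which were nearly equal. The difference was -0.44 ± 0.17 (SE, n = 2 per group, limma adjusted p = 0.395), with a 95% interval of -0.85 to -0.03. A dimmer probe for the same transcript read -3.67 and -3.67 on the haploid arrays against -3.57 and -2.66 on the diploid arrays. Its difference of -0.56 ± 0.30 had the same sign, most of it from diploid replicate 2. Leaving out 1 array in turn moved the brighter probe's difference between -0.51 and -0.37.

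The distance between Mdm2 and Mdm4 on the same array does not depend on how arrays are scaled to each other by a constant. Mdm2 exceeded Mdm4 by 6.31 and 6.09 on the haploid arrays and by 5.37 and 5.12 on the diploid arrays. This distance between 2 probes has no meaning as a level, but it was larger on both haploid arrays, by 0.95 on average (exact permutation test, two-sided p = 0.333, the smallest that 2 against 2 can give). It was 0.80 with cyclic loess, 0.69 when normexp left out spots of high local background and 1.57 with normexp on all spots, and 0.83 to 1.08 with 1 array left out. The pair was chosen for this comparison after its values were seen.

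Ppm1d, the phosphatase WIP1 that removes activating phosphates from p53 and from the damage kinases, read -0.79 and -1.32 on the haploid arrays and -1.14 and -1.13 on the diploid arrays. The haploid arrays held both the highest and the lowest value, and the diploid arrays were nearly equal between them. The difference was 0.08 ± 0.22 (limma adjusted p = 0.906). Leaving out haploid replicate 1 gave -0.19, and leaving out haploid replicate 2 gave 0.34.

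**Figure D2:**
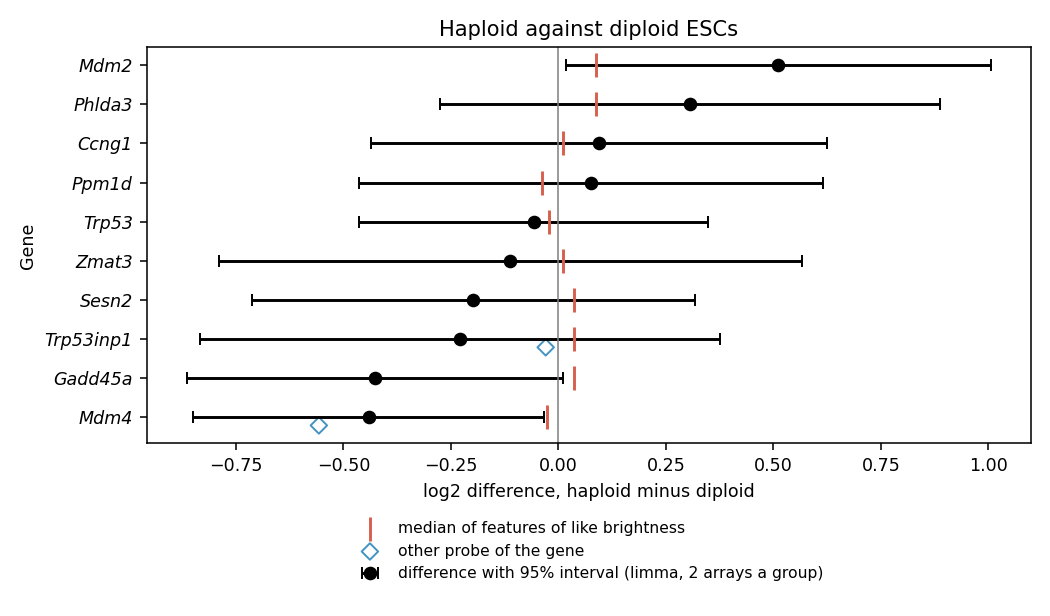
Log2 difference of each gene, haploid minus diploid, with its 95% interval from limma (2 arrays per group), the median of features in the same brightness class (red tick) and other probes of the gene (open diamonds). The interval of Mdm2 lies above 0 and that of Mdm4 below 0 before adjustment over all features, and the other 8 intervals hold 0.

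Among the targets, Gadd45a had the clearest group difference. The gene encodes a small protein that binds PCNA and acts in growth arrest and repair after stress. It read 1.61 and 1.55 on the haploid arrays and 2.14 and 1.88 on the diploid arrays. Both haploid values lay below both diploid values. The difference was -0.43 ± 0.18 (SE, n = 2 per group, limma adjusted p = 0.434), with a 95% interval of -0.86 to 0.01. It stayed below 0 with 1 array left out (-0.56 to -0.30).

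Gadd45g, a related stress gene in the list of other targets, read 2.15 and 2.23 on the haploid arrays and 1.06 and 1.12 on the diploid arrays. The difference was 1.102 ± 0.166 (limma adjusted p = 0.0934), the smallest among the listed p53 genes when each is read by its brightest probe, and the gene passed the test in 3 of the other settings tried. Gadd45b, named after its values were seen, read 2.50 and 3.16 against 2.43 and 2.35, a difference of 0.44 ± 0.25. That value rested largely on haploid replicate 2, since it was 0.11 without that array and 0.77 without haploid replicate 1. On each array the distance of Gadd45g from Gadd45a was 0.54 and 0.68 in haploid cells and -1.08 and -0.75 in diploid cells. The groups differed in it by 1.53 (exact permutation test, two-sided p = 0.333), a pair also chosen after its values were seen.

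Phlda3, whose product competes with AKT for membrane lipids and so limits AKT signalling, read 4.55 and 3.93 on the haploid arrays and 3.96 and 3.91 on the diploid arrays. Haploid replicate 1 stood apart from the other 3 arrays, which lay within 0.05 of each other. The difference of 0.31 ± 0.24 (limma adjusted p = 0.625) rested on that array, since it was -0.0046 without haploid replicate 1. Without haploid replicate 2 it was 0.61.

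Ccng1, cyclin G1, which brings a phosphatase to MDM2 and is among the most used readouts of p53 activity, read 1.28 and 0.77 on the haploid arrays and 0.89 and 0.98 on the diploid arrays. Both diploid values lay between the haploid ones. The difference was 0.09 ± 0.22 (limma adjusted p = 0.877), and it was -0.16 when haploid replicate 1 was left out and 0.35 when haploid replicate 2 was.

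Zmat3, a zinc finger protein that binds RNA, showed the widest gap between the haploid arrays. It read 0.98 and 0.24 there, and 0.57 and 0.87 on the diploid arrays. The diploid values again lay between the haploid ones. The difference was -0.11 ± 0.28 (limma adjusted p = 0.889), or -0.48 without haploid replicate 1 and 0.26 without haploid replicate 2. It was 0.04 without diploid replicate 2.

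Sesn2, sestrin 2, which restrains mTORC1 and guards against oxidative stress, read 2.29 and 1.85 on the haploid arrays and 2.18 and 2.37 on the diploid arrays. Haploid replicate 2 was the low array. The difference was -0.20 ± 0.21 (limma adjusted p = 0.725), and without haploid replicate 2 it was 0.02. The other sestrins, named after their values were seen, differed by -0.16 ± 0.17 (Sesn1) and 0.38 ± 0.17 (Sesn3). Sesn1 moved to -0.08 without haploid replicate 1 and to -0.24 without haploid replicate 2.

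Trp53inp1, a nuclear protein that aids p53 activation and autophagy, read 2.28 and 1.70 on the haploid arrays and 2.06 and 2.38 on the diploid arrays. Haploid replicate 2 was again the lowest. The difference was -0.23 ± 0.25 (limma adjusted p = 0.731). A dimmer probe for this gene read -1.33 and -1.51 against -1.63 and -1.15, a difference of -0.03 ± 0.22. The brighter probe's difference was -0.52 without haploid replicate 1 and 0.06 without haploid replicate 2. With normexp on all spots, the differences of Trp53inp1 (0.14), Sesn2 (0.13), Zmat3 (0.12) and Ppm1d (-0.19) also turned sign.

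The haploid lines stood apart from each other in these genes. Haploid replicate 1 lay above haploid replicate 2 for all 10 genes, and for all 12 probes, while 44.6% of all features did so. The gap was 0.07 to 0.74, with a median of 0.47, beside a median of -0.03 over all features. Zmat3 (0.74), Phlda3 (0.62), Trp53inp1 (0.59), Ppm1d (0.53), Ccng1 (0.51), Sesn2 (0.44) and Mdm2 (0.36) had the wider gaps, and Mdm4 (0.15), Trp53 (0.13) and Gadd45a (0.07) the narrower ones. For 7 of the 10 genes the gap exceeded the difference between groups, as it did for 49.4% of all features. Between the diploid arrays, replicate 1 was higher for 3 of the 10, with a median gap of -0.01. It was higher for 9611 of all 17963 features, with a median gap of 0.03. Each line is 1 array, so the gap between lines has no replicate and no test, and it was noticed after the values were seen.

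The direction of that gap was the same under each scaling and background correction tried. In 6 other scalings and background corrections all 10 genes stayed higher on haploid replicate 1, with medians of 0.40 to 0.66. Of all features, 48.8% to 70.9% were higher on that array in these settings, the largest share with median scaling. The smallest gap among the 10 genes fell to 0.0024 in both normexp settings. These settings process the same arrays again, and both normexp settings gave the same median gap (0.40). Median scaling moved the median gap of all features to 0.15, beside 0.66 for the 10 genes. Brightness classes of the 10 genes had median gaps from -0.06 to 0.03. Relative to features of like brightness, the genes' gaps had a median of 0.45. ESC markers were higher on haploid replicate 1 in 10 of 15 and fibroblast markers in 12 of 20, with median gaps of 0.15 and 0.17. The summed level of the fibroblast markers was 165 and 167 times the 75th percentile on haploid replicates 1 and 2. The part of either in the p53 genes' gap was not tested.

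**Figure D3:**
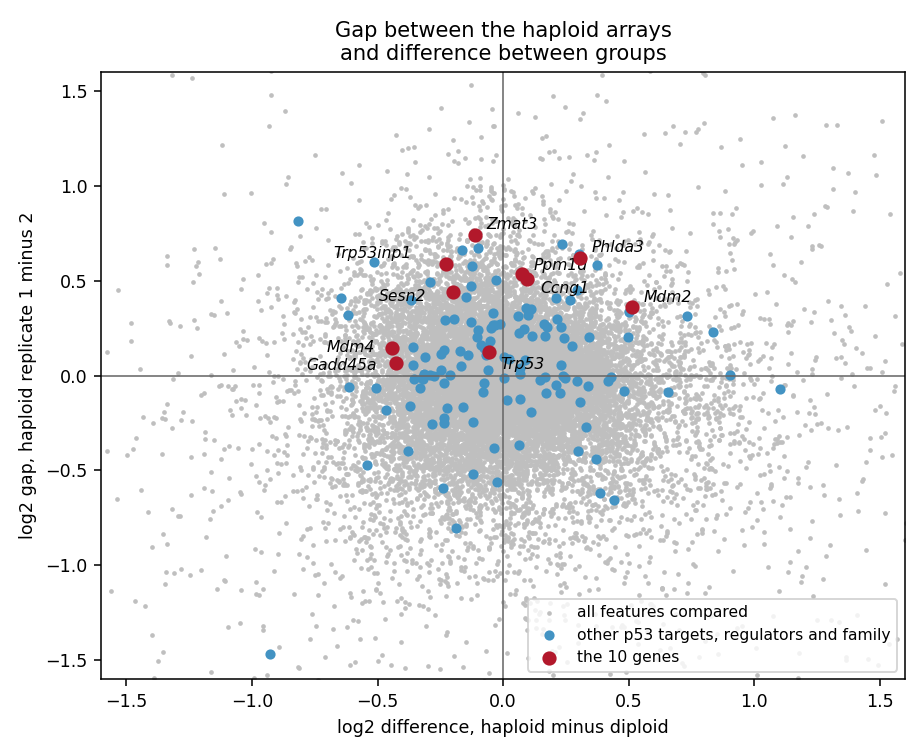
Gap between the haploid arrays (vertical, replicate 1 minus 2, log2) against the difference between groups (horizontal, haploid minus diploid, log2) for the 10 genes in red, other p53 genes in blue and all features in grey, with 312 features outside the axes. All red points lie above the horizontal line at 0 and on both sides of the vertical one.

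Other genes of the pathway were taken from lists of arrest and growth genes, apoptosis genes, metabolism and repair genes, regulators and p53 relatives. Of 127 genes listed 122 were measured. Of these 0 passed limma's test over all features, where 0.111% of all features passed. An unadjusted limma p under 0.05 was reached by 15 of the 122, near the 11.7% of all features that reached it. In the arrest and growth list 13 of 24 measured genes lay above 0 and 11 below, with a median of 0.07. Beside Gadd45g, Gdf15, a secreted stress cytokine, differed by 0.66 ± 0.18, Hexim1, an inhibitor of transcription elongation, by -0.82 ± 0.30, and Prdm1, a repressor of transcription, by 0.43 ± 0.16 (limma adjusted p of 0.258, 0.369 and 0.392). Prdm1 turned to -0.57 with normexp on all spots but was 0.34 when spots of high local background were left out. Hexim1 was -0.41 without haploid replicate 2. The list's median was -0.08 without haploid replicate 1, 0.19 without haploid replicate 2 and -0.02 with normexp on all spots.

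Cdkn1a, the CDK inhibitor p21 and the best known p53 target, is named here after its values were seen. It read 1.76 and 1.79 on the haploid arrays and 1.31 and 1.40 on the diploid arrays. Unlike the 10 genes it showed no higher value on haploid replicate 1, and its haploid values lay above its diploid ones. The difference was 0.42 ± 0.17 (limma adjusted p = 0.413), and 1.30 ± 0.17 by a dimmer probe for another transcript (limma adjusted p = 0.0718 with every probe tested). It is the gene of these lists whose promoter window held a pair of p53 decamers, as 24 of all windows did (0.0731%).

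No apoptosis target passed the test. Of 19 measured genes 12 lay above 0, with a median of 0.10 (-0.04 without haploid replicate 1 and 0.17 without haploid replicate 2). Fas, a death receptor, had the largest difference, 0.83 ± 0.18 (limma adjusted p = 0.174), on a dim probe that was well above background on only 1 diploid array. Its difference turned to -0.71 with normexp on all spots but was 0.38 when spots of high local background were left out. Siva1, a partner of death receptors, differed by 0.50 ± 0.20, Bid, a BH3-only activator of cell death, by -0.33 ± 0.16 and Trp53i13 by 0.33 ± 0.20 (adjusted p of 0.420 to 0.541). Without diploid replicate 2, Siva1 was 0.32 and Trp53i13 0.19, and Trp53i13 was also 0.19 without haploid replicate 2. Haploid replicate 1 exceeded haploid replicate 2 in 14 of the 19, with a median gap of 0.20. Perp, a desmosome protein, and Bbc3 (PUMA), both named after their values were seen, had gaps of 0.69 and 0.35.

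In the metabolism and repair list 12 of 27 measured genes lay above 0 and 15 below (median -0.05). The sign of that median turned with normexp on all spots (0.14), with median scaling (0.024) and without haploid replicate 1 (0.027). Ephx1, an epoxide hydrolase, differed by 0.90 ± 0.16 (limma adjusted p = 0.137), or 0.36 by its other probe, and Dcxr, a sugar reductase, by 0.73 ± 0.19 (adjusted p = 0.225). Gls2, a glutaminase, and Tigar, which slows glycolysis, differed by -0.37 ± 0.17 and -0.36 ± 0.17 (adjusted p of 0.463 and 0.474). The gap between haploid arrays was near 0 in this list (median 0.0014, 14 of 27 above 0). Haploid replicate 1 was higher in 13 of the 24 arrest and growth genes (median 0.09), so the gap seen in the 10 genes was not found across every group of p53 targets. Whether the lists differ in it was not tested.

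Among other regulators 18 of 50 lay above 0 and 32 below, with a median of -0.07. The median was -0.14 without haploid replicate 1 and -0.002 without haploid replicate 2, and its sign turned with normexp on all spots (0.19) and with median scaling (0.0014). Atm, the kinase that reports DNA breaks to p53, differed by -0.62 ± 0.20 by either of its probes (-0.62 and -0.61). The checkpoint kinase gene Chek1, read by a dim probe, differed by -0.47 ± 0.18, where features of like brightness had a median of -0.17. Chek1 was -0.08 when normexp left out spots of high local background. Bcl6, a repressor that lowers Trp53 transcription in B cells, differed by -0.65 ± 0.20. Cdkn2a, whose locus encodes the MDM2 inhibitor ARF and the CDK inhibitor p16, differed by 0.48 ± 0.19, and by 0.51 by its other probe. None of these 4 passed (limma adjusted p of 0.311 to 0.397). The p53 relatives Trp63 and Trp73 differed by 0.23 ± 0.18 and 0.0023 ± 0.17 (adjusted p of 0.624 and 0.996), and another probe of Trp73 by 1.15. Trp63 was 0.12 without diploid replicate 2.

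**Figure D4:**
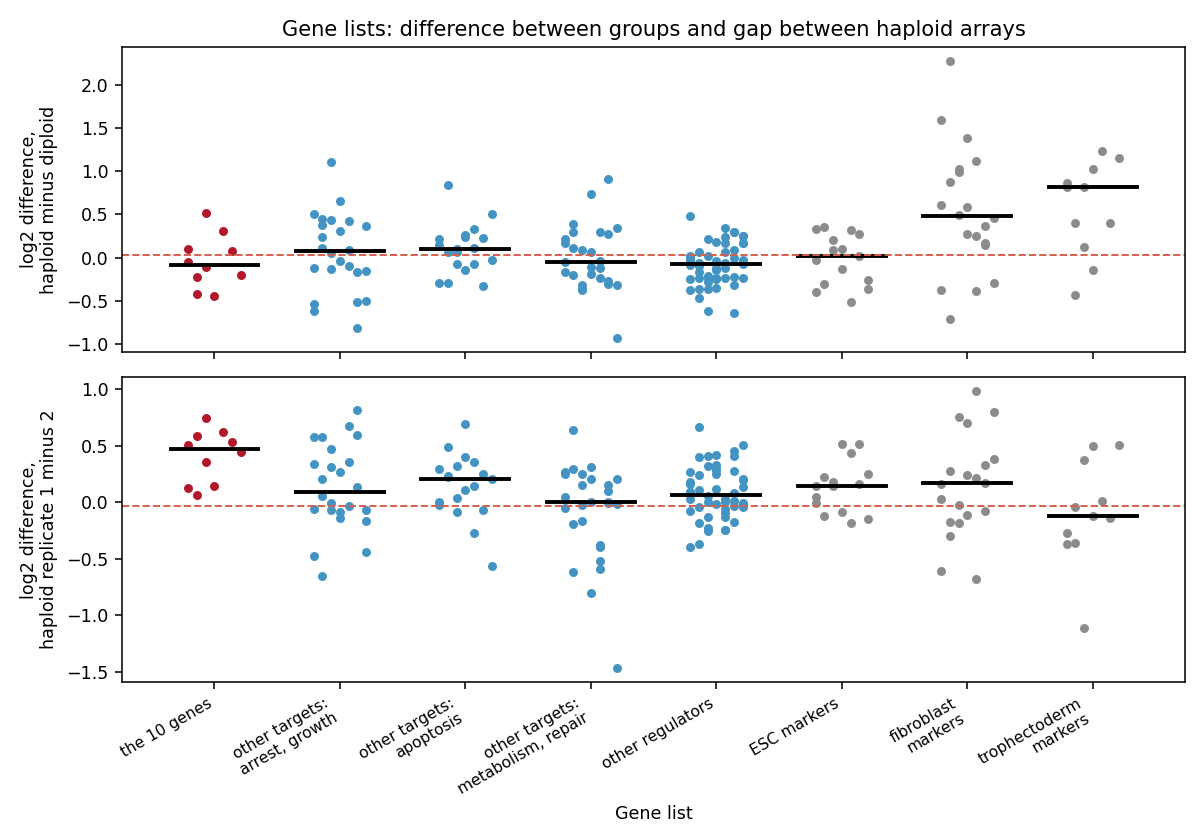
Log2 difference of single genes, haploid minus diploid (upper panel) and haploid replicate 1 minus 2 (lower panel), by gene list, with each list's median as a black bar and the median of all features as a dashed line. The 10 genes have a median of -0.08 in the upper panel and 0.47 in the lower one.

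Most measured markers of other cell types had higher values on the haploid arrays, and none passed the test as reported. Fibroblasts serve as feeder layers in ESC culture, and of 22 fibroblast markers 20 were measured and 16 lay above 0, with a median of 0.48, and Pdgfrb and Prrx1 did not pass the filter. The median was 0.30 without haploid replicate 1 and turned to -0.15 with normexp on all spots. It was 0.33 when normexp left out spots of high local background. Their summed level was 165 to 167 times the 75th percentile on haploid arrays and 110 to 130 times on diploid arrays. That of all features was also higher on haploid arrays, at 273464 to 276409 times against 208610 to 259389 times. Ccl2 differed by 1.59 ± 0.18, Thbs1 by 1.39 ± 0.26 and Fbln5 by 1.03 ± 0.22 (limma adjusted p of 0.0528 to 0.185), and Fbln5 turned to -0.28 with normexp on all spots. Ccl2 passed the test in 6 other settings: normexp omitting spots of high local background (adjusted p = 0.0157), median scaling (0.0285), the filter on all 4 arrays (0.0160), the trend and robust prior (9.8e-05), and without haploid replicate 1 (0.0284) or 2 (0.0158). Thbs1 and Fbln5 passed with the trend and robust prior. The genes nearest to Mdm2 in pattern over the 4 arrays were Iqce, Col6a1 and Klf6 (root mean square distance of 0.028 to 0.034), and Col6a1 is itself one of these fibroblast markers. The part of fibroblast RNA in the Mdm2 difference was not tested.

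Trophectoderm markers lay above 0 in 9 of 11 measured of 15 (median 0.82, or 0.33 without haploid replicate 2 and 0.24 with normexp on all spots), with summed levels of 32.2 to 32.3 on haploid and 23.4 to 23.7 on diploid arrays. Krt18, Krt8 and Gata3 differed by 1.23 ± 0.17, 1.15 ± 0.23 and 1.02 ± 0.19 (limma adjusted p of 0.0781 to 0.170). Gata3 turned to -0.55 with normexp on all spots but was 0.52 when spots of high local background were left out. The defining factors Cdx2 and Elf5 did not pass the filter. Krt18 passed the test with normexp omitting spots of high local background, with the filter on all 4 arrays and with the trend and robust prior, and Krt8 with that prior and without haploid replicate 2. Of 11 primitive endoderm markers 6 were measured, with summed levels of 3.79 to 4.05 on haploid and 2.98 to 3.15 on diploid arrays. Of these, 4 lay above 0 and 2 below, with a median of 0.18 that turned to -0.74 with normexp on all spots. Sox17, Sox7, Foxa2, Dab2 and Afp did not pass the filter. Amn differed by 0.78 ± 0.25, or 0.49 without haploid replicate 2. Gata4, which 1 of the haploid arrays did not read well above background, differed by -0.77 ± 0.28, or -0.43 without haploid replicate 1 and -0.11 when normexp left out spots of high local background. Cubn was not well above background on the diploid arrays and did not pass (limma adjusted p = 0.351). As reported, its bound was 1.78-fold higher in haploid cells, but this limit did not hold in other settings. On the log2 scale Cubn differed by 0.62 without diploid replicate 2. It differed by 0.40 when normexp left out spots of high local background and by -0.804 with normexp on all spots. ESC markers lay above 0 in 8 of 15 (median 0.01), with summed levels of 301 to 319 and 266 to 298. The summed level of all features was also higher on haploid arrays (273464 to 276409) than on diploid arrays (208610 to 259389). Tdgf1, Dppa4 and Nanog, the 3 with the smallest p, differed by -0.51 ± 0.19, -0.40 ± 0.17 and -0.37 ± 0.17 (limma adjusted p of 0.370 to 0.468). When normexp left out spots of high local background they differed by -0.60, -0.44 and, for the dim Nanog probe, -0.19. The part of these cell states in the values of the 10 genes was not tested.

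**Figure D5:**
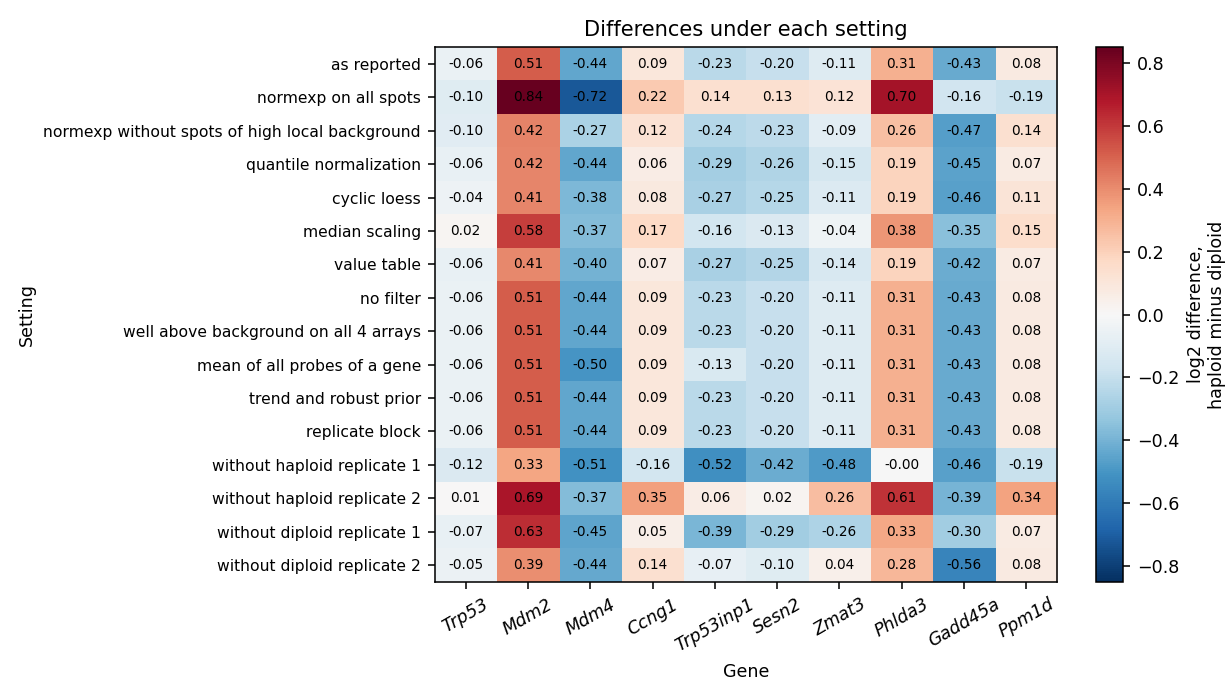
Log2 difference of each gene, haploid minus diploid, as reported and under each of 15 other settings, coloured from blue (lower in haploid cells) to red (higher). Mdm2 stays above 0 and Mdm4 and Gadd45a below 0 in every setting shown, while the other 7 genes change sign at least once.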

How the data were processed

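Per the file headers, Agilent Feature Extraction 11.0.1.1 gave the authors' scanner files, in which a spot's processed signal is a linear intensity. The authors' deposited value table also holds linear intensity values (column medians 28.4, 28.3, 28.4 and 28.3), and how its columns were scaled is not stated in the sources used here. It was used as an alternative. Control and outlier spots (121 to 168 of 43020 per array) were left out, repeated spots averaged, and log2 signals set against each array's 75th percentile. No spot was saturated, and the arrays shared 1 slide and 1 scan. Of 39409 probes 26043 were named through RefSeq accessions (GRCm38.p6). A probe was kept if both arrays of at least 1 group lay well above background, and the brightest probe stood for its gene. This left 17963 features. They were compared with limma 3.58.1 (R 4.3.3, two-sided, Benjamini-Hochberg, n = 2 per group). Python 3.11.15 read the files. Fits were tested on simulated data. The number of arrays limits the precision, and p-values measure only the spread between these samples, which the series' text calls independent experiments. The 10 genes and all lists were chosen with earlier results of these data known. Named from each other p53 list were the 4 genes with the smallest p, from each marker list 3, and the 3 genes nearest in pattern to Trp53 and Mdm2. The normexp alternatives used median spot signals.
A bound sets the haploid mean against the mean of diploid values raised to each array's lowest signal well above background.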

Additional observations from a re-analysis of the deposited data

How the results depend on the processing

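None of the 10 genes passed the test in any of 15 other settings, of which normexp omitting spots of high local background was chosen after seeing the data. The count of all features passing, 20 as reported, was 0 with normexp on all spots, cyclic loess or no filter, 2 with the replicate block, 4 with the value table, 7 with quantile normalization, 68 with normexp omitting spots of high local background, 82 with the filter on all 4 arrays, 89 with median scaling, 425 with trend and robust prior, and 0 to 294 with 1 array left out. Other p53 genes passing numbered 2 (Ephx1 and Gadd45g), 1 (Gadd45g) and 4 (Dcxr, Ephx1, Gadd45g and Gdf15) with normexp omitting spots of high local background, the filter on all 4 arrays and the trend and robust prior, and 0 to 1 with 1 array left out (Ndrg1 without haploid replicate 2).

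The median of the 10 genes was 0.12 with normexp on all spots, which set the median of all features at -0.10, and -0.31 to 0.16 with 1 array left out, and 1 to 8 of them then lay above 0. With normexp on all spots, where diploid replicate 2 held spots of local background up to 30899 units and its values spread less (SD 1.45 against 2.59 to 2.64), signs turned for Trp53inp1 (0.14), Sesn2 (0.13), Zmat3 (0.12), Ppm1d (-0.19), Prdm1 (-0.57), Fas (-0.71), Trp73 (-0.58), Fbln5 (-0.28), Gata3 (-0.55), Cubn (-0.804), Htt (0.25), Ywhaz (0.11), Col6a1 (-0.18), Btg2 (-0.0185) and Plk2 (-0.14). With median scaling they turned for Trp53 (0.016), Dhtkd1 (0.021), Htt (0.00962) and Ywhaz (0.027), and Dhtkd1 also turned with cyclic loess (0.024) and normexp omitting spots of high local background (0.032). The cause was not tested.

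With 1 array left out, values ran from -0.12 to 0.0056 for Trp53, -0.16 to 0.35 for Ccng1, -0.52 to 0.064 for Trp53inp1, -0.42 to 0.022 for Sesn2, -0.48 to 0.26 for Zmat3, -0.0046 to 0.61 for Phlda3, -0.19 to 0.34 for Ppm1d, -0.069 to 0.074 for Trp73, -0.12 to 0.013 for Dhtkd1, -0.13 to 0.0053 for Htt, -0.11 to 0.017 for Ywhaz, -0.11 to 0.58 for Perp and -0.067 to 0.29 for Bbc3. Arrays of the same replicate number did not deviate together (correlation 0.048 across features). With 2 arrays per group this value cannot show whether equally numbered lines share an origin. The replicate block left 2 features passing (0 higher, 2 lower). A block for slide was not run, since all arrays lay on 1 slide.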
